A study of Pseudochlorella pringsheimii with 2 samples.

Results

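The transcripts described here are 142 of the 13566 contigs counted in *Chlorella ellipsoidea*, namely those that were scarce in the control library and at least 3 times as abundant in the GmDof4 library. They were chosen by the measured values themselves: an RPKM above 0 and under 20 in CK, at least 20 reads in GmDof4, and an RPKM in GmDof4 at least 3 times that in CK. RPKM is the number of reads on a contig per kb of its length and per 1000000 counted reads of the library. A contig is a stretch of transcript put together from short reads without a genome. A fixed list of 14 contigs that the study named (acetyl-CoA carboxylases, heat shock proteins and a heat shock transcription factor, a flavodoxin, a monooxygenase, a fatty acid elongase and an esterase) was left out, and 9 of those, 7 of them from the lipid list, would have met the thresholds.

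GmDof4 is a soybean member of the Dof family, plant transcription factors that bind DNA through a single zinc finger. *C. ellipsoidea* is a unicellular green alga that can live by photosynthesis, on an organic carbon source or on both. The GmDof4 library came from Dof4-1, a G418-selected clone of strain IGDB-1 in which a maize ubiquitin promoter drives GmDof4. The CK library came from CK-1, a G418-selected line of the same strain that carries pCK, the same vector lacking the GmDof4 cassette. Both were grown mixotrophically for 120 hours in Endo medium without antibiotic, at 25°C and 100 μmol photons/m2/s, and RNA was isolated from a mixture of 3 cultures per strain. There is thus 1 library per strain and 1 clone per construct. No difference has a replicate within these sequencing data, and no test between the strains was made. The study also measured the regulated transcripts of its lipid list by qRT-PCR in independent transgenic strains. Of the members, that list holds only contig 69772, and those measurements were not used here. The library totals were 14589660 reads in GmDof4 and 14823559 reads in CK. The 95% intervals below are exact Clopper-Pearson intervals of the ratio of RPKM, GmDof4 over CK, and cover counting error only. In a mixed culture, more RNA per cell and more cells with the transcript cannot be told apart. The GmDof4 transcript itself was not looked up, because the contigs are known here by number and length only.

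Taken as a group, the 142 contigs lay at the bottom of the CK library and in the middle of the GmDof4 library. Their median RPKM was 22.9 in GmDof4 (8.10 to 111) and 5.29 in CK (0.383 to 19.9). The median contig of the whole library had 24.4 RPKM in GmDof4 and 22.6 in CK. Ranked by RPKM, the median member stood at the 47.2 percentile in GmDof4 and at the 1.91 percentile in CK. In GmDof4 63 of the 142 contigs lay above the library median and 10 above the upper quartile, whereas in CK 0 lay above the median, which the limit of 20 RPKM fixes, and 127 lay below the lower quartile. Summed over all members there were 46774 GmDof4 reads (0.321% of that library) and 10518 CK reads (0.0710%), a ratio of 4.52 (95% interval 4.42 to 4.62). Every contig in the sum was kept for a ratio of at least 3, so the summed ratio exceeds 3 by construction. Its interval does not allow for that selection. The rule also favours the low places in CK.

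**Figure D1:**
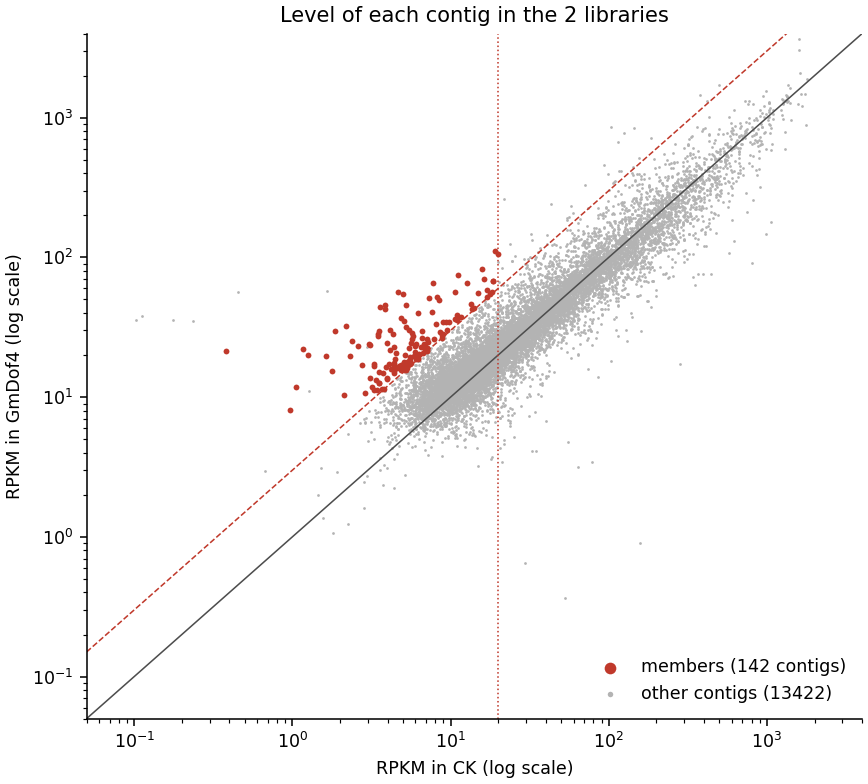
RPKM of each contig in GmDof4 (vertical axis) against RPKM in CK (horizontal axis), both on log scales, for contigs with reads in both libraries. Red points are the 142 members, grey points the others, the solid line marks equal levels, the dashed line a ratio of 3 and the dotted line 20 RPKM in CK. The members lie left of the dotted line, from 0.383 to 19.9 RPKM in CK, and reach 8.10 to 111 RPKM in GmDof4.

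The ratios were spread unevenly. Their median was 3.79 with quartiles of 3.36 and 5.81. A ratio from 3 to under 4 was found for 79 contigs, from 4 to under 8 for 42, from 8 to under 16 for 17, and of 16 or more for 4. Over all 13564 contigs with reads in CK the ratio had a median of 1.07, and 196 of them, or 1.45%, were at least 3 times higher in GmDof4. Among the 6135 contigs within the same limits of CK level and read number the median was 1.18, and 151 of them, or 2.46%, reached 3 times, which are the 142 members and the 9 that were left out. Only 5 of these 6135 were at least 3 times lower in GmDof4. These shares follow from the way the contigs were selected and are given as a description.

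Counting error limits the placing of many members. The 95% interval lay wholly at or above a ratio of 3 for 58 contigs and reached below it for 84, while for 136 it lay at or above 2. Fewer than 50 reads in CK stood behind 75 of the contigs, and fewer than 10 behind 6. In GmDof4 the read number ran from 41 to 2079 with a median of 182, and in CK from 2 to 636 with a median of 42.5.

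The share of contigs that met the ratio was larger in the classes that were lower in CK. The CK level is also the denominator of the ratio, so part of such a gradient is built in, whichever library is the low one. Of the 211 contigs under 5 RPKM in CK, 69 (32.7%, left-out contigs included) were at least 3 times higher in GmDof4. The share was 3.31% of the 1845 contigs from 5 to 10 RPKM and 0.515% of the 4079 contigs from 10 to 20 RPKM. With the roles of the libraries exchanged, 44 of 5557 contigs, or 0.792%, were low in GmDof4 and at least 3 times higher in CK. Under 5 RPKM in GmDof4, 16 of 47 contigs (34%) were at least 3 times higher in CK. The share was 1.15% of the 1218 contigs from 5 to 10 RPKM in GmDof4 and 0.326% of the 4292 from 10 to 20 RPKM. All these counts take only contigs with reads in the low library and at least 20 reads in the other. Among those, contigs under 5 RPKM were more numerous in CK, with 211, than in GmDof4, with 47. Scarce contigs without that read minimum were not counted. In both directions the few contigs under 1 RPKM that passed the read minimum were all at least 3 times higher in the other library. The minimum of 20 reads forces this for those with the fewest reads in the low library. The contigs had been assembled from the reads of both libraries and of a further transgenic library together, and the part of the assembly in these counts was not tested.

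**Figure D2:**
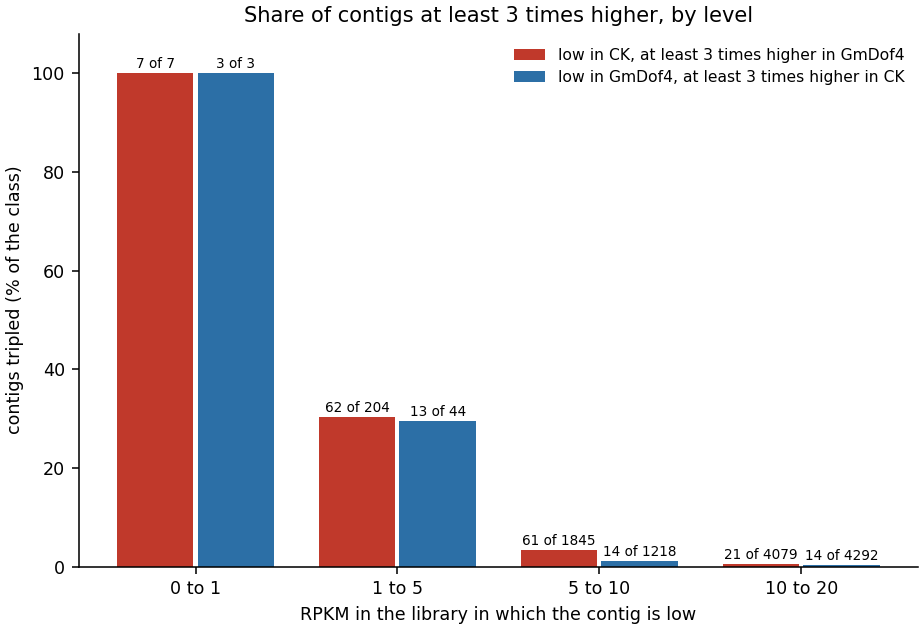
Percent of contigs at least 3 times higher in the other library (vertical axis) by RPKM class in the library where the contig is low (horizontal axis). Red bars are contigs low in CK and higher in GmDof4, blue bars contigs low in GmDof4 and higher in CK, with counts above each bar, the left-out contigs included. Each class takes only contigs with reads in the low library and at least 20 reads in the other. For contigs of 1 to 5 RPKM the share higher in GmDof4 is 30.4% and the share higher in CK 29.5%, and at 10 to 20 RPKM they are 0.515% and 0.326%, while the classes under 1 RPKM hold only 7 and 3 contigs.

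The split of 151 contigs higher in GmDof4 against 44 higher in CK, or 77.4% in GmDof4, also moved with the scaling of the libraries. With each ratio centred on a running median over abundance, it was 105 against 62, or 62.9% in GmDof4. Under median-of-ratios scaling it was 124 against 58.

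The length of the contigs was not used by the rule. The members had a median of 508.5 bp, the low contigs from which they came 535 bp, and all contigs 805 bp. Of the 2724 low contigs under 500 bp 2.53% were members, of the 2353 from 500 to 1000 bp 2.08%, and of the 1058 of 1000 bp or more 2.27%. Among the low contigs the shares thus lay close together over the range of length. Shares over all contigs of each length were not computed. The 24 members of at least 1000 bp had a median ratio of 5.20, against 3.65 for the 49 members from 500 to 1000 bp and 3.79 for the 69 members under 500 bp.

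A description of the best matching protein of another organism was available in the study for 22 of the 142 contigs. The study listed those contigs for their ratio in these same libraries, mostly past 4 times, so their ratios are not independent of the selection. The groups of proteins below were made here from the study's descriptions. How many contigs of a group are members therefore follows largely from that listing and is no result about the group. Their median ratio was 6.78, from 3.51 to 12.3, and 21 of the 22 exceeded 4. The study prints no description for the other 120 contigs, which are known here by number only. Its lists show only a part of the upregulated contigs that it matched to proteins. Matched contigs may therefore be among the 120. The median ratio of the 120 was 3.59, from 3.01 to 55.9, with 42 at 4 or more. These 120 held 76.3% of the GmDof4 reads of the members.

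**Figure D3:**
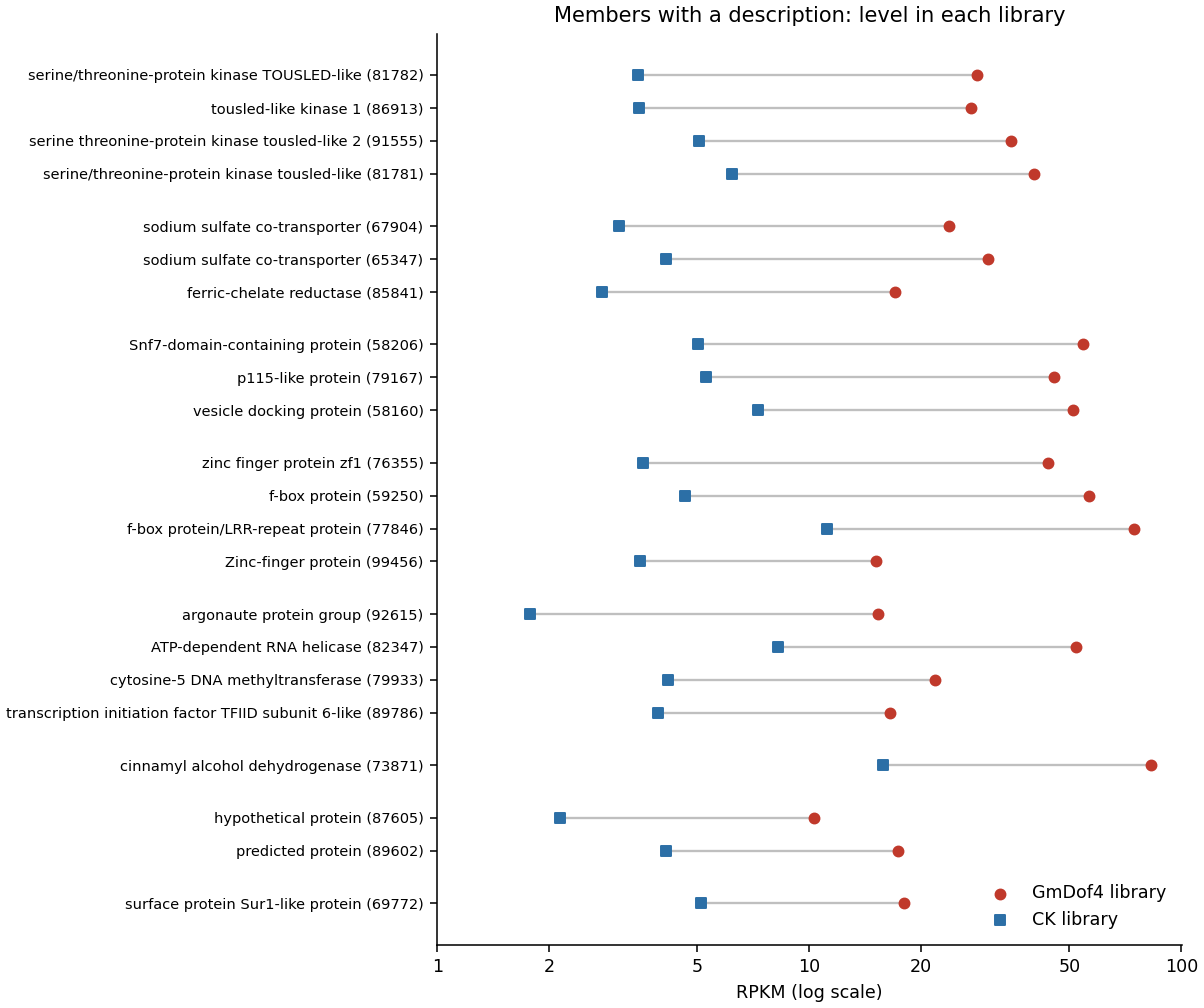
RPKM (horizontal axis, log scale) of the 22 members with a description, in the GmDof4 library (red circles) and the CK library (blue squares), grouped by the kind of protein. GmDof4 levels run from 10.3 to 82.6 RPKM and CK levels from 1.78 to 15.7 RPKM.

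Of the described contigs, 4 matched TOUSLED-like kinases. TOUSLED is a serine/threonine kinase first known from *Arabidopsis*, where it is needed for leaf and flower development, and its animal relatives phosphorylate a histone chaperone during DNA replication. Contig 81781, of 848 bp, had 496 GmDof4 reads against 78 CK reads (40.1 RPKM in GmDof4, 6.21 RPKM in CK), a ratio of 6.46 (95% interval 5.08 to 8.31). Contig 81782, of 428 bp, had 176 GmDof4 reads against 22 CK reads (28.2 RPKM in GmDof4, 3.47 RPKM in CK), a ratio of 8.13 (5.20 to 13.3). The 2 other contigs fell in the same range. Contig 86913, of 656 bp, had 27.2 RPKM in GmDof4 and 3.50 RPKM in CK, a ratio of 7.77 (5.42 to 11.5). Contig 91555, of 360 bp, had 34.8 RPKM in GmDof4 and 5.06 RPKM in CK, a ratio of 6.89 (4.58 to 10.7). The intervals of all 4 overlap, and the order among them is not resolved at this depth. Summed, they had 1115 GmDof4 reads against 161 CK reads, a ratio of 7.04 (5.96 to 8.35). How many genes these contigs come from was not tested.

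Ion uptake was represented by 3 contigs. The 2 contigs matching sodium sulfate co-transporters, which carry sulfate into the cell together with sodium, were close to each other in ratio. Contig 65347, of 1927 bp, had 847 GmDof4 reads against 118 CK reads (30.1 RPKM in GmDof4, 4.13 RPKM in CK), a ratio of 7.29 (95% interval 6.01 to 8.92). Contig 67904, of 1201 bp, had 415 GmDof4 reads against 55 CK reads, a ratio of 7.67 (5.78 to 10.4). The ferric-chelate reductase contig 85841, whose enzyme class reduces ferric iron at the cell surface before uptake, was the lowest of the 3 in RPKM, with 17.0 RPKM in GmDof4 and 2.77 in CK. Its ratio was 6.13 (4.68 to 8.13). The 3 contigs together had 1642 GmDof4 reads against 236 CK reads, a ratio of 7.07 (6.16 to 8.14), and their own intervals overlap.

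Membrane traffic was represented by 3 contigs, all with ratios above 7. The Snf7-domain contig 58206 had the largest. Snf7 is a subunit of ESCRT-III, the complex that pinches off vesicles into endosomes, as known from yeast. The contig had 606 GmDof4 reads against 57 CK reads (54.3 RPKM in GmDof4, 5.03 RPKM in CK), a ratio of 10.8 (95% interval 8.22 to 14.4). The contig matching p115, in mammals a tether that holds vesicles at the Golgi before fusion, is 79167. It had 817 GmDof4 reads against 96 CK reads (45.5 RPKM in GmDof4, 5.27 RPKM in CK), a ratio of 8.65 (6.99 to 10.8). The vesicle docking protein contig 58160, of 1828 bp, had 1367 reads in GmDof4, the most of any described member, and 197 in CK. Its ratio of 7.05 (6.07 to 8.23) was below the interval of the Snf7-domain contig. Summed, the reads were 2790 in GmDof4 against 350 in CK, a ratio of 8.10 (7.24 to 9.08).

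The zinc finger and F-box contigs held the highest ratios among the described members. F-box proteins choose the substrates of SCF ubiquitin ligases, and zinc fingers are small domains that bind DNA, RNA or proteins. The zinc finger protein zf1 contig 76355 had 664 GmDof4 reads against 55 CK reads (43.9 RPKM in GmDof4, 3.58 RPKM in CK), a ratio of 12.3 (95% interval 9.31 to 16.5). The F-box contig 59250 had 801 GmDof4 reads against 67 CK reads, a ratio of 12.1 (9.46 to 15.8). The intervals of these 2 contigs overlap almost wholly. The F-box/LRR-repeat contig 77846 was more abundant, with 74.4 RPKM in GmDof4 and 11.1 in CK, and its ratio was smaller, at 6.68 (5.67 to 7.92). The second zinc finger contig, 99456, of 327 bp, had only 72 GmDof4 reads against 17 CK reads, and its interval of 2.51 to 7.79 reached below 3. Of the 5 contigs of this list 4 are members, with 2622 GmDof4 reads against 304 CK reads in sum and a ratio of 8.76 (7.78 to 9.90). This sum mixes unlike ratios, and none of the 4 contigs has a ratio within its interval. The ubiquitin thioesterase contig 81062, an enzyme class that takes ubiquitin off proteins, fell just outside, with 92.3 RPKM in GmDof4 and 20.1 in CK.

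All 4 contigs grouped here under chromatin, RNA and transcription are members. The study had listed them for ratios past 4 times in these libraries, so their number follows from that listing. The ATP-dependent RNA helicase contig 82347, of 1571 bp, had 1197 GmDof4 reads against 192 CK reads (52.2 RPKM in GmDof4, 8.24 RPKM in CK), a ratio of 6.33 (95% interval 5.43 to 7.42). The argonaute contig 92615, from the protein family that uses small RNAs to silence genes, was the scarcest of the described members in CK, with 93 reads or 15.3 RPKM in GmDof4 against 11 reads or 1.78 RPKM in CK. Its ratio of 8.59 has a wide interval of 4.59 to 17.8. The cytosine-5 DNA methyltransferase contig 79933, whose enzyme class methylates DNA, had 108 GmDof4 reads against 21 CK reads, a ratio of 5.23 (3.25 to 8.78). The contig matching subunit 6 of TFIID, a general factor that places RNA polymerase II at promoters, is 89786. With 83 GmDof4 reads against 20 CK reads its ratio of 4.22 (2.56 to 7.26) was not resolved from 3. The 4 contigs summed to 1481 GmDof4 reads against 244 CK reads, a ratio of 6.17 (5.38 to 7.09).

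Of the 4 in the list of carbohydrate and secondary metabolism, only the cinnamyl alcohol dehydrogenase contig 73871 is a member. This enzyme class makes the alcohol precursors of lignin in land plants. The contig had 1220 GmDof4 reads against 236 CK reads (82.6 RPKM in GmDof4, 15.7 RPKM in CK), the highest level of the described members in both libraries, and a ratio of 5.25 (95% interval 4.57 to 6.06). The 3 others, 2 sugar transport proteins and hexokinase 2, had 241 to 673 RPKM in GmDof4 and 42.8 to 114 RPKM in CK. How many lipid contigs are members is set by the rule. The fixed list took out 7 contigs of the lipid list, acetyl-CoA carboxylases, the elongase and the esterase, and all 7 met the thresholds. Of the 13 lipid contigs higher in GmDof4 that were not taken out, 1 is a member, 11 were under 3 times and 1, with 0 reads in CK, could not have a ratio. The lipid list also reaches lower than the others, to a ratio of 2.03 against 4.22, so only its contigs could fall under 3 times. The member, 69772, matched a surface protein Sur1-like protein and had 83 GmDof4 reads against 24 CK reads, a ratio of 3.51 (2.21 to 5.79), the smallest of the described members. For 2 further contigs the match names no function. The hypothetical protein contig 87605 had 76 GmDof4 reads against 16 CK reads, a ratio of 4.83 (2.79 to 8.87). The predicted protein contig 89602 had 79 GmDof4 reads against 19 CK reads, a ratio of 4.22 (2.54 to 7.38).

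The contigs without a description included the 5 highest ratios of the group. Contig 18178, of 352 bp, had 110 GmDof4 reads against 2 CK reads (21.4 RPKM in GmDof4, 0.383 RPKM in CK), a ratio of 55.9 with a 95% interval of 15.1 to 467. With 2 reads in CK the ratio says little beyond its lower limit. Contig 90417, of 657 bp, had 287 GmDof4 reads against 18 CK reads, a ratio of 16.2 (10.1 to 27.7). Contig 90583, of 1425 bp, rests on more reads, 668 in GmDof4 against 46 in CK, and had a ratio of 14.8 (10.9 to 20.4). These 3, with the zf1 and F-box contigs 76355 and 59250, had the highest lower limits. Contig 61540 had 41 GmDof4 reads against 5 CK reads, a ratio of 8.33 (3.29 to 27.0), and contig 89614 had 55 against 5, a ratio of 11.2 (4.51 to 35.8).

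**Figure D4:**
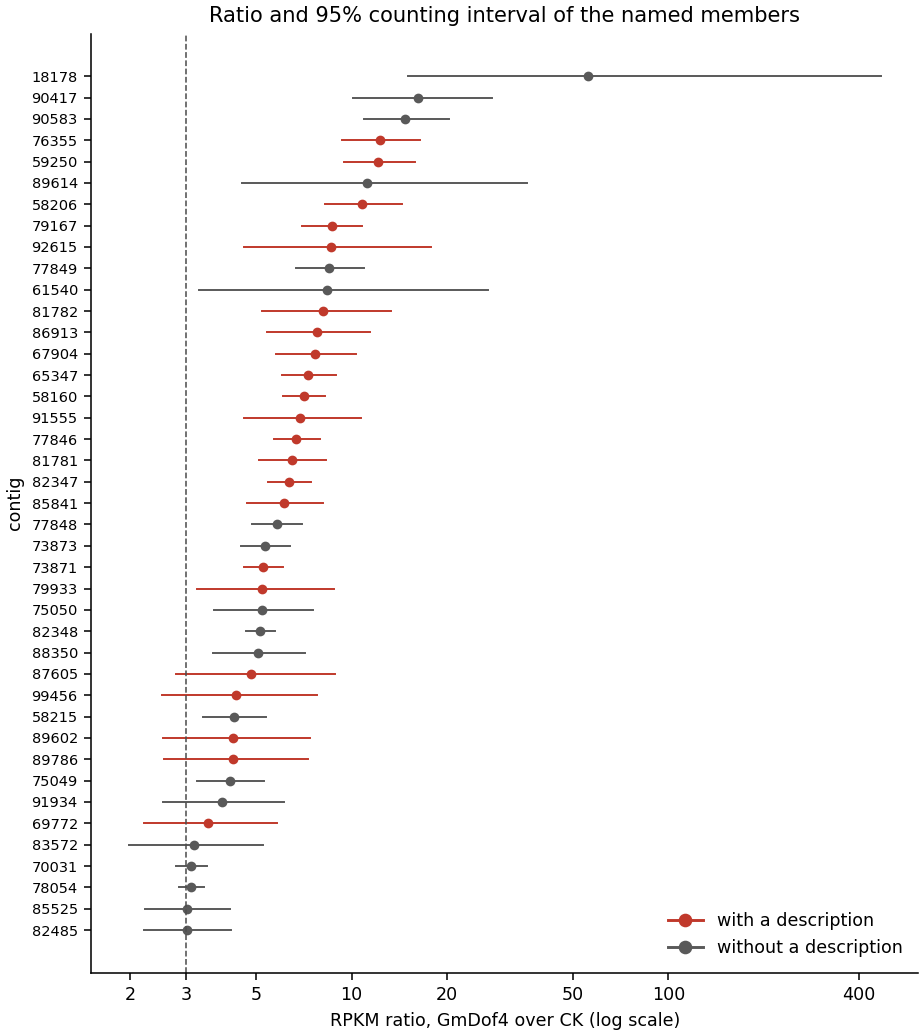
Ratio of RPKM, GmDof4 over CK (horizontal axis, log scale), of the members named here (vertical axis, contig numbers), with 95% counting intervals as lines; red marks contigs with a description, grey those without, and the dashed line a ratio of 3. The ratios run from 3.01 to 55.9, the widest interval belongs to contig 18178 with 2 reads in CK, and the 4 contigs at the bottom have ratios of 3.01 to 3.12.

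The members with the highest RPKM in GmDof4 were also high within the range allowed in CK. Besides the described contigs 73871 and 77846 they were 3 short contigs without a printed description. Contig 77848, of 506 bp, reached 111 RPKM in GmDof4 against 19.2 in CK, a ratio of 5.80 (95% interval 4.85 to 6.97). Contig 73873, of 511 bp, reached 106 RPKM in GmDof4 against 19.9 in CK, a ratio of 5.32 (4.46 to 6.37). Contig 58215, of 391 bp, had 69.6 RPKM in GmDof4 and 16.4 RPKM in CK, a ratio of 4.25 (3.39 to 5.37). By read number the largest was 82348, of 2189 bp, with 2079 GmDof4 reads against 410 CK reads, a ratio of 5.15 (4.63 to 5.74). The long contigs 78054, of 2356 bp, and 70031, of 1958 bp, were the other 2 of the 3 longest. Contig 78054 had 1947 GmDof4 reads against 636 CK reads, a ratio of 3.11 (2.84 to 3.41). Contig 70031 had 1246 GmDof4 reads against 406 CK reads, a ratio of 3.12 (2.79 to 3.50). Neither was resolved from 3, although both intervals are narrow.

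Some members carry contig numbers that lie within 2 of each other, a pattern looked for after the values were seen. The sources used here do not say what the numbering means. There were 5 such sets with 11 contigs, and how often other contigs form such sets was not counted. The cinnamyl alcohol dehydrogenase contig 73871 and contig 73873 had ratios of 5.25 and 5.32. Contig 73872, between them in number and not a member, had 242 GmDof4 reads against 131 CK reads. Its ratio was 1.88 (95% interval 1.51 to 2.34), below the intervals of both. The RNA helicase contig 82347 and contig 82348 had 6.33 and 5.15, contigs 75049 and 75050 had 4.12 and 5.21, and the TOUSLED-like contigs 81781 and 81782 had 6.46 and 8.13. The F-box/LRR-repeat contig 77846 stood with 77848 and 77849, at 6.68, 5.80 and 8.48. The intervals of the members overlapped within each set, where the rule had held every ratio to at least 3. Counted once per set, the 142 contigs come to 136.

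The contigs nearest the limits of the rule were as follows. The 2 members with the smallest ratios, 82485 and 85525, both stood at 3.01, and the 2 contigs nearest outside, 67561 and the Rft-1-domain contig 91381, both at 2.98. At the limit of 20 RPKM in CK, 73873 and 77848 were inside at 19.9 and 19.2 RPKM, and 81062 and 76336 outside at 20.1 and 20.4 RPKM. The ratios of the 2 inside were 5.32 and 5.80 and those of the 2 outside 4.60 and 3.28, and the interval of 76336, from 2.89 to 3.72, lies below those of both members. The minimum of 20 reads in GmDof4 kept out 1 contig, 92256, with 13 GmDof4 reads against 3 CK reads and a ratio of 4.40 (1.21 to 24.1). The members nearest that minimum, 61540 and 89614, had 41 and 55 reads in GmDof4.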

How the data were processed

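RNA-seq was performed on poly(A) RNA of 2 libraries, 1 per strain, as single-end reads. The authors assembled contigs with SOAPdenovo and used those of 300 bp or longer as the reference for BWA with its default settings, both in versions not given in the sources used here. How a read matching several contigs was counted is not stated either. The deposited counts are raw read numbers per contig. The deposited RPKM values equal the counts divided by contig length in kb and by the library total in units of 1000000 reads, within 5e-12.

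Ratios were calculated as RPKM in GmDof4 over RPKM in CK without a pseudocount, with exact Clopper-Pearson 95% intervals (scipy 1.17.1, Python 3.11.15). With 1 library per strain no p-value was computed. The libraries were amplified by PCR and no molecular identifiers are described, so reads are not independent molecules and intervals cover counting error only. A count of 0 allows up to 3 reads, which correspond to 0.206 reads per 1000000 in GmDof4 and 0.202 in CK. Scaling alternatives used edgeR 4.0.16 (TMM), DESeq2 1.42.0 (median of ratios), totals that omit the 10 contigs highest in reads, and the running median of 500 contigs. The other alternatives changed the fold, the limit in CK, the read minimum, the contig length, the treatment of 0 reads in CK (taken as 3) and a pseudocount of 1 RPKM. The code of the rule and the intervals was checked on simulated counts with counting error only, in which the raised contigs lay well above a ratio of 3. That check does not cover ratios near 3, the scarcest contigs or variation between cultures.

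The members, the lists and the alternatives were chosen with earlier results of these data known. Contigs named in the text are all members that the study's 2 lists of regulated transcripts describe. They also include the 5 with the highest lower limits, the 5 with the highest RPKM and the 5 with the most reads in GmDof4, the 3 longest, the 3 with the fewest reads in CK, and those nearest each threshold. Contigs named for a neighbouring number were chosen after their values were seen. Contig sequences and other parts of the contig names were not used.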

Additional observations from a re-analysis of the deposited data

How the results depend on the processing

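The number of members, 142, was moved by more than 1.5 times by 4 of the alternatives. It was 529 at a ratio of at least 2 and 63 at a ratio of at least 4. It was 58 where the lower limit of the interval had to reach 3, and 73 with contigs of at least 500 bp, which leaves out shorter members by construction. Under the other alternatives it stayed between 97, with ratios centred on the running median, and 143. It was 120 under TMM. Contigs of neighbouring number were counted once, and their reads summed, only after the data had been seen, which gave 136 members with a median log2 ratio of 1.89. The median log2 ratio of the members, 1.92, stayed between 1.74 and 1.92 under the alternatives computed for it. The scaling alternatives kept the same 142 contigs for this median and only shifted their ratios. A small change was therefore built in and is no check of the selection. Without the member with the most reads, 82348, the members held 0.306% of GmDof4 reads and 0.0682% of CK reads. The exchanged count of 44 was 55 under TMM and 58 under median-of-ratios scaling. Of the 41 named members, 82485, 85525, 70031 and 78054 fell under a ratio of 3 under TMM, median-of-ratios scaling and centring, and 83572 did so under median-of-ratios scaling and centring. With 1 RPKM added, 82485, 85525, 70031 and 83572 did. None reversed. No paired analysis was possible because there is 1 library per strain, and for the same reason no library could be left out.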

Other observations

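Of the members, 111 have at least 1 other contig within 2 of their number. The share of all contigs with such a neighbour was not computed, so this count is not read as particular to the members. The 207 such contigs that are not members had a median ratio of 1.10, against 1.07 over all contigs. Of the 207, 2 reached a ratio of 3 and 2 were at least 3 times lower in GmDof4. With the members taken out, few contigs that could reach 3 remain, so the count of higher ones is largely set by the rule. The share of 1.45% over all contigs with reads in CK includes the members and is not comparable. The 2 higher ones are left-out contigs that lie beside a member: the flavodoxin contig 88349, with a ratio of 34.9 (95% interval 23.1 to 55.4), beside contig 88350, with 224 GmDof4 reads against 45 CK reads and a ratio of 5.06, and the elongase contig 83574, with a ratio of 7.75 (6.10 to 9.96), beside contig 83572, with 75 GmDof4 reads against 24 CK reads and a ratio of 3.18. The 2 lower ones also lie beside members. Contig 83571, on the other side of 83572, had 92 GmDof4 reads against 563 CK reads, a ratio of 0.166 (0.132 to 0.207). Contig 91933 had 56 GmDof4 reads against 1284 CK reads, a ratio of 0.0443 (0.0333 to 0.0579), while the member 91934 had 107 GmDof4 reads against 28 CK reads and a ratio of 3.88 (2.54 to 6.12). Whether such contigs belong to 1 transcript was not tested.

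In the exchanged direction, the 44 contigs low in GmDof4 and at least 3 times higher in CK had a median ratio of CK over GmDof4 of 4.32, and 8 of them were 8 times higher or more. Their median length was 660 bp.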
